A study of Mus musculus with 10 samples.

Results

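Gene expression of mouse osteoblasts with active β-catenin was compared with that of wild-type osteoblasts. The samples were chosen by their labels, and they make up 7 of the 10 in the series, 3 with osteoblast-specific, constitutively expressed β-catenin and 4 wild type. The other 3 samples had FoxO1 deleted specifically in osteoblasts, and they enter here only through the shared estimate of the spread and as a second altered genotype beside single genes. All mice were 2 to 3 days old, the background strain is labelled C5BL6 in every sample, and sex is recorded as indeterminate. The promoter that confines either change to osteoblasts, the altered β-catenin allele and the alleles carried by the wild-type mice are not given in the sources used here. Whether a sample was made from a single mouse, from pooled mice or from cultured cells is not stated either. The p-values therefore rest on the variation between the arrays at hand, some of which may be technical.

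β-catenin, encoded by Ctnnb1, carries the canonical Wnt signal. Without a Wnt ligand a complex built around Axin marks it for destruction. With a ligand, or when it cannot be degraded, it enters the nucleus and activates genes together with transcription factors of the TCF/LEF family, several of which encode inhibitors that feed back on the pathway. In bone the pathway promotes osteoblast formation, and osteoblasts in turn set the number of osteoclasts, the bone-resorbing cells, through the ligand RANKL and its decoy receptor osteoprotegerin.

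Each sample was hybridised to 1 Affymetrix array, and values are log2 MAS5 signal, in which 1 unit is a 2-fold difference. Array medians lay between 7.02 and 7.22. Over the 11357 genes tested, wild type 1 and 2 correlated at 0.990 and wild type 3 and 4 at 0.989, while arrays of different pairs correlated at 0.971 to 0.973. The 3 arrays with active β-catenin correlated at 0.960 to 0.979. The wild-type pairs also differed in sex-linked genes. Signal of Xist, the RNA that coats the silenced X chromosome, was 14.25 in wild type 3, 14.05 in wild type 4, and no higher than 8.96 in the remaining wild-type arrays and with active β-catenin. Each result is therefore also given against each wild-type pair, and with each pair averaged to 1 unit, where it matters. The difference between the 3′ and the 5′ probe set of Actb, which is larger in more degraded RNA, was 0.688 ± 0.074 (SD, n = 4) in wild type and 0.870 ± 0.017 (n = 3) with active β-catenin (exact permutation test, two-sided, p = 0.0571, where the smallest possible is 0.0286). Its part in the results was not tested.

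Osteoblast genes were abundant in all arrays. Col1a1, the main chain of bone collagen, was at 15.08, 15.15, 15.12 and 15.09 in wild type 1 to 4 and at 15.26, 15.23 and 15.09 in active β-catenin 1 to 3. The groups overlapped, and the log2 difference was 0.08 ± 0.08 (SE, adjusted p = 0.765). Ctnnb1 itself was at 14.35 to 14.56 in wild type and at 14.42 to 14.49 with active β-catenin. Whether the probe set lies in the altered part of the gene is not known here, so this value was not used as a check of the genotype labels.

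With limma's test, 89 of 11357 genes (0.784%) changed at an adjusted p under 0.05, 68 upward (0.599%) and 21 downward (0.185%). The median rise was 2.02-fold and the median fall 1.52-fold, and the median log2 difference over all genes was 0.005. Over all genes the signs were nearly even, with 5803 positive and 5529 negative differences, and 1373 genes (12.1%) had an unadjusted p under 0.05. The largest rises were those of Coch, a secreted matrix protein known from the inner ear, Car12, a carbonic anhydrase at the cell surface, and Sp6, a zinc finger transcription factor known from teeth and limbs. The 3 deepest falls were those of Olfm4, Lcn2 and Ifitm6, which are known from neutrophils.

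The separation from the wild-type arrays was complete for all 89, with no overlap between the groups, as it was for 14.0% of all genes tested, 7.27% higher and 6.76% lower. The same sign of all 89 against each wild-type pair follows from that lack of overlap and is no further support. Of the 89, 63 differed at least 1.5-fold from both pairs. The test itself depended on how the wild-type arrays were counted. With each pair averaged, 9 genes (0.0792%) passed limma's test, all of them among the 89 and all higher: Coch, Car12, Sp6, Notum, Pdpn, Cdkn1a, Ccn2, Fst and Prelp. Without wild type 1, 2, 3 or 4 the count was 31, 32, 45 or 35, and without active β-catenin 1, 2 or 3 it was 40, 63 or 40. Besides those 9, another 15 of the 89 kept their call whichever of the 7 arrays was left out, among them Irx6, Cyp1b1, Plppr4, Abca8a, Enpp3, Nr4a2, Nt5e, Bambi, Ackr3, Ptx3 and Ramp1. For 12 of the rises the wild-type mean, and for 4 of the falls the mean with active β-catenin, lay under the table's median of 7.15, so these folds are inexact. The filter kept a gene with 3 arrays above that median. Through the 3 arrays with active β-catenin alone it kept 8 of the rises, Coch, Car12, Sp6, Irx6, Gchfr, Sema3e, Lratd1 and Brinp1. Ptgs2, Ism1 and A2m had fewer than 3 other arrays above that median, so they too needed arrays with active β-catenin to pass. The falls Lcn2, Olfm4 and Ifitm6 in turn needed wild-type arrays. Such genes had to be high in those arrays to be tested, so their part in the counts that follow supports nothing about a group. Other kept probe sets existed for 33 of the 89 genes, and 57 of these 60 probe sets had the sign of the one used. The 3 that did not belong to Gsn, Pole3 and Rtel1.

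**Figure D1:**
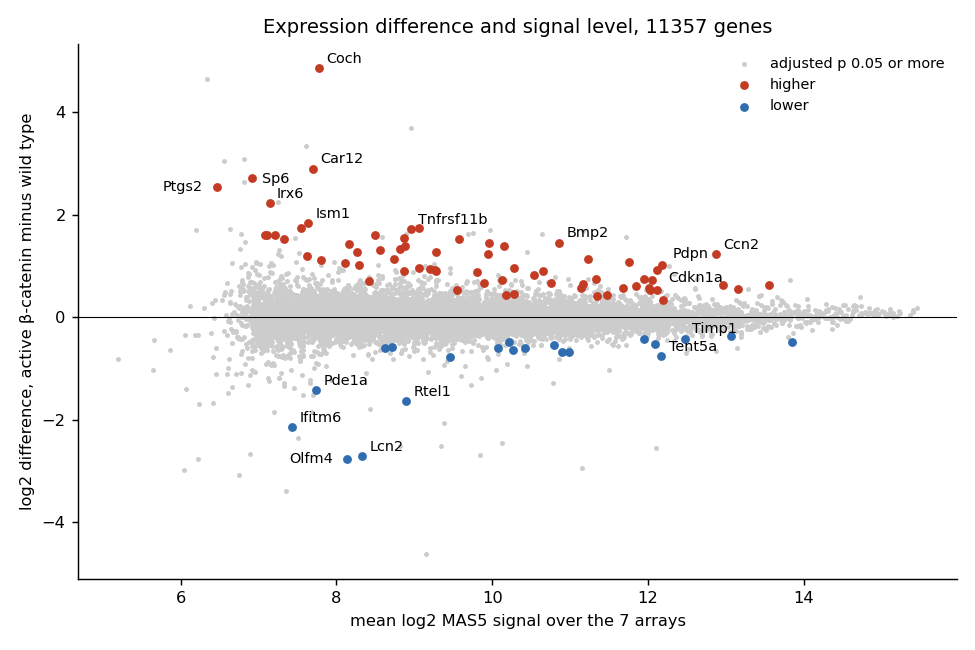
Log2 difference, active β-catenin minus wild type, against the mean log2 MAS5 signal over the 7 arrays for 11357 genes. Red points are the 68 genes higher and blue points the 21 genes lower at an adjusted p under 0.05, and most of the largest rises lie at low to middle signal while Ccn2, Cdkn1a and Pdpn lie near 12 or above.

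**Figure D2:**
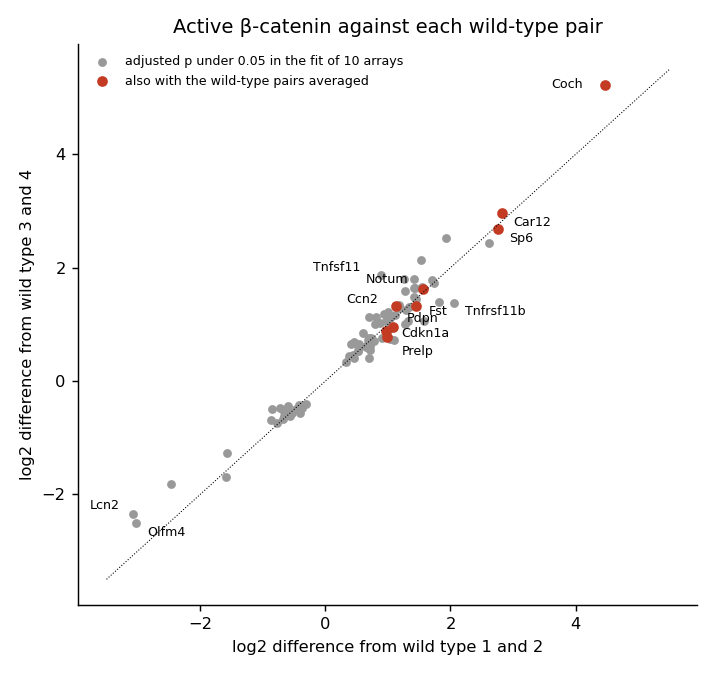
Log2 difference of the mean with active β-catenin from the mean of wild type 1 and 2 (x axis) and from the mean of wild type 3 and 4 (y axis) for the 89 genes. All 89 points have the same sign on both axes, which follows from their lack of overlap with any wild-type array. The 9 genes that also passed with the pairs averaged are in red.

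Upstream sequence was looked at because the genes moved with the partner of TCF/LEF factors. RefSeq start sites of assembly GRCm38.p6 gave a window of 250 bases before the start for 44 of the 68 genes that rose and for 18 of the 21 that fell. The letters searched were CTTTGAA as the first form, CTTTGAT as the second form, CTTTGTA as the third form and CTTTGTT as the fourth form on both strands, which are forms of the TCF/LEF motif and do not overlap one another. A match was present in 8 of 57 windows of genes that rose (14.0%), in 1 of 28 windows of genes that fell (3.57%), in 9.97% of the windows of all genes tested and in 14.8% of all 32851 windows. The windows of Lef1 (chr3:131156044-131156293, plus strand), Pdpn (chr4:143299565-143299814, minus strand), Sema3e (chr5:14025026-14025275, plus strand) and Kcnk2 (chr1:189402274-189402523, minus strand) are shown because these genes rose and these windows hold a match, in capitals. That of Coch (chr12:51593091-51593340, plus strand) is shown because Coch rose most, and it holds none of these letters. All run 5′ to 3′ on the gene's strand and end at the base before the start.
Lef1: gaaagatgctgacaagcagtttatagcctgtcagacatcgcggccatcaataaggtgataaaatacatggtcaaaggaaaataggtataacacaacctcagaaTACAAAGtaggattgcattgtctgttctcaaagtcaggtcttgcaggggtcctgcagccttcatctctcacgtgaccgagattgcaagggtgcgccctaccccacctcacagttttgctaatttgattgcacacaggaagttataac
Pdpn: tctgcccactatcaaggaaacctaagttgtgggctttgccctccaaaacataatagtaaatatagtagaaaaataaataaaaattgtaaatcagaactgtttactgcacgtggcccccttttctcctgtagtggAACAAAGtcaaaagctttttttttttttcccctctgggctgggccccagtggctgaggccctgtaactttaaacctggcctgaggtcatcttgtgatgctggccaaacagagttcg
Sema3e: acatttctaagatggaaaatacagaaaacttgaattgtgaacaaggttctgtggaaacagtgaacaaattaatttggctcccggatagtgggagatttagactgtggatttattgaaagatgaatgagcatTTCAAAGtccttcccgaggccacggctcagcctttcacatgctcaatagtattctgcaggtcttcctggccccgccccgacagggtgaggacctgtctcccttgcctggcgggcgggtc
Kcnk2, upstream start: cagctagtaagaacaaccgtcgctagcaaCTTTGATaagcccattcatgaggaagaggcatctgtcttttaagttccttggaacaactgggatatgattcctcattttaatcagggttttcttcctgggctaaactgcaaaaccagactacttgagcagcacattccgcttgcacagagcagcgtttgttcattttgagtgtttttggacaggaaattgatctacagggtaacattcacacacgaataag
Coch: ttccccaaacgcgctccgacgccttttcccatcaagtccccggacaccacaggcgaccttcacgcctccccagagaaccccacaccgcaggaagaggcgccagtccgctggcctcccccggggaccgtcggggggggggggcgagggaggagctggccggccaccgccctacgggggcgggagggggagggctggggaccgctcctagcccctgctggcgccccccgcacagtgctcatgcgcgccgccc
Another window of Kcnk2, 1 window of Anxa7 and the windows of Cyp1b1 and Fbln7 also held a match, as did that of Ifitm6 among the falls. The windows at the other starts of Lef1 (chr3:131110047-131110296, chr3:131110073-131110322 and chr3:131112541-131112790) held none. Nor did the remaining windows of Kcnk2 and Anxa7. The windows of Car12 and of Axin2 held none. A match describes the letters of the window and is no evidence of binding.

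Among Wnt feedback genes the secreted inhibitor Notum and the transcription factor Lef1 rose, and the other members did not pass the test. Of 31 tested members 2 were called higher (6.45%, against 0.599% of all genes) and 0 lower. The median log2 difference was 0.24, with 23 of 31 positive, and 14 members lay higher and 2 lower without overlap, against 7.27% and 6.76% of all genes. Notum, an enzyme that strips the lipid from Wnt ligands, was at 7.65, 8.04, 8.0 and 7.56 in wild type and at 9.64, 9.31 and 9.28 with active β-catenin. All 3 arrays were well above the wild-type range, by 3.03-fold on average (log2 difference 1.60 ± 0.17 SE, adjusted p = 0.00129), and the difference was 2.96-fold against wild type 1 and 2 and 3.10-fold against wild type 3 and 4.

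Lef1, which binds DNA together with β-catenin, was at 7.68, 7.70, 7.38 and 8.09 in wild type and at 9.44, 8.68 and 8.83 with active β-catenin. The rise was 2.41-fold (1.27 ± 0.24, adjusted p = 0.0359), and active β-catenin 1 was the highest array. A second probe set differed by 0.79 but did not pass the filter on low signals. The call of Lef1 was lost without any 1 of the 7 arrays (highest adjusted p 0.142). Axin2, the scaffold gene often used as the readout of the pathway, was at 8.79, 8.48, 8.83 and 8.83 in wild type and at 8.88, 8.91 and 9.18 with active β-catenin. Its arrays did not overlap, but the gap was 0.05 between the nearest arrays and the difference of 0.26 ± 0.14 did not pass (adjusted p = 0.516).

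The secreted inhibitors of bone had differences of both signs. Sost, the osteocyte protein sclerostin that blocks the Wnt co-receptors, was at 8.96 to 9.16 in wild type and at 10.36, 9.53 and 10.11 with active β-catenin (0.96 ± 0.20, adjusted p = 0.0637). Sostdc1, a relative of sclerostin, differed by 0.72 (adjusted p = 0.0965) and Nkd1, an intracellular inhibitor, by 0.57 (0.0875). On the other side, Frzb, a soluble frizzled-like decoy, was at 9.24 to 9.29 in wild type and at 8.06, 8.63 and 8.79 with active β-catenin (-0.77 ± 0.16, adjusted p = 0.0600). Dkk1, which also blocks the co-receptors, was at 10.51 to 10.88 in wild type and at 9.82 to 10.16 with active β-catenin (-0.69 ± 0.16, 0.0898). None of these 5 passed the test, and the groups did not overlap for any of them. Of the membrane regulators, among them the ligase Znrf3 (0.22) and the receptor Lgr5 (0.65), 0 of 9 passed with limma, with 3 at an unadjusted p under 0.05. Of 23 tested Wnt ligands and frizzled receptors 0 passed, with 6 at an unadjusted p under 0.05 and a median of 0.14.

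**Figure D3:**
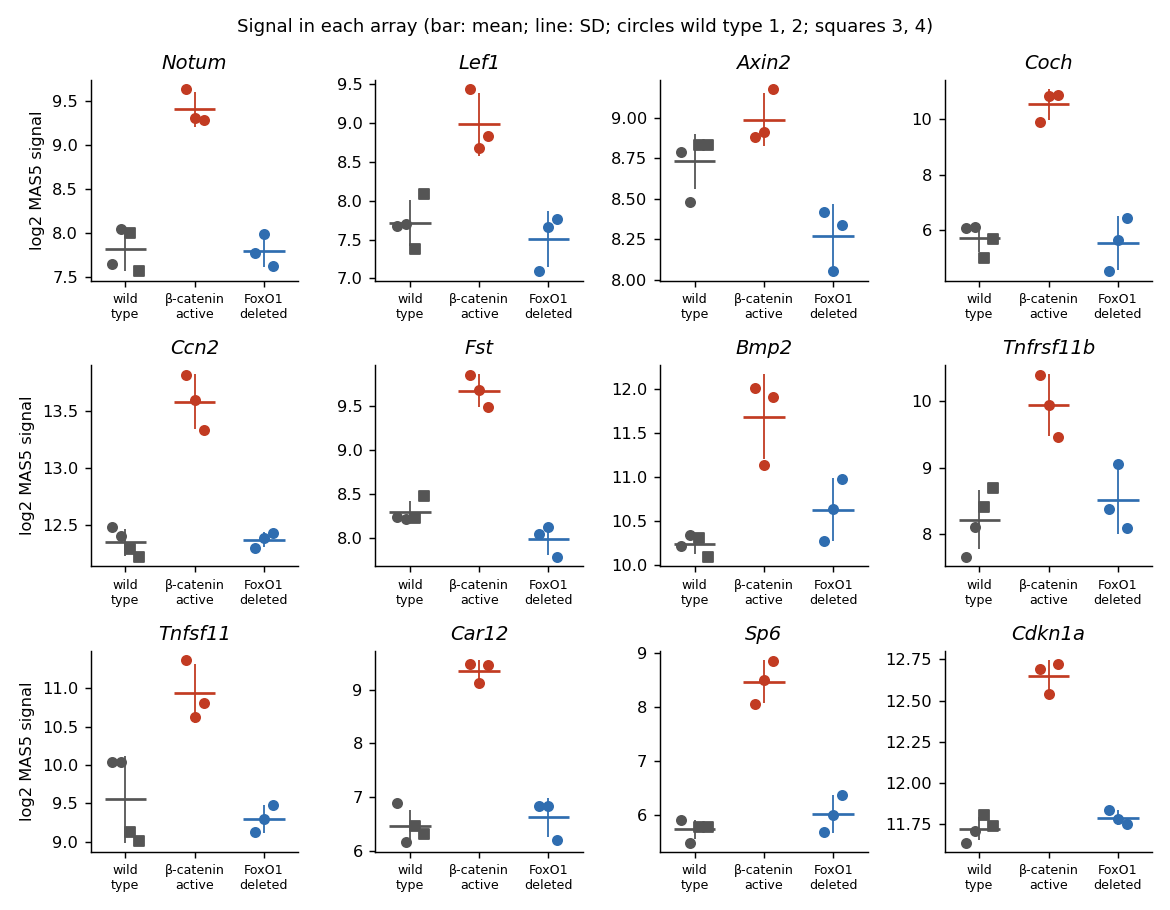
Log2 MAS5 signal in each array for 12 genes, by genotype, with the mean as a bar and the SD as a line, and wild type 1 and 2 as circles and 3 and 4 as squares. Each panel has its own axis, and the arrays with active β-catenin lie above all wild-type arrays in all 12 panels, by a gap of 0.05 for Axin2 and by much more for Coch, Car12 and Sp6.

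Several secreted factors rose, led in size by Coch. Of 91 tested members 9 rose (9.89%, against 0.599% of all genes) and 0 fell. Fgf13, counted among the 9 by its family, stays inside cells, so the share is not one of secreted factors alone. Coch, among these 9, passed the filter only through the arrays with active β-catenin, and Ism1 also needed some of them to pass. The median log2 difference was 0.17 and 71 of 91 were positive. Coch was at 6.06, 6.09, 4.98 and 5.65 in wild type and at 9.90, 10.84 and 10.90 with active β-catenin, a rise of 28.9-fold (4.85 ± 0.45, adjusted p = 0.000712). Its wild-type signals lay under the table's median, and the fold was 22.2 against wild type 1 and 2 and 37.6 against wild type 3 and 4. Ccn2, connective tissue growth factor, was already abundant in wild type, at 12.48, 12.40, 12.29 and 12.22, and stood at 13.81, 13.59 and 13.33 with active β-catenin. The rise of 2.34-fold (1.23 ± 0.11, adjusted p = 0.000684) exceeded the spread of both groups.

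Ligands and antagonists of the BMP and TGF-β family followed. Bmp2, a bone-inducing ligand, was at 10.21, 10.34, 10.31 and 10.09 in wild type and at 12.02, 11.14 and 11.91 with active β-catenin (2.74-fold, 1.45 ± 0.21, adjusted p = 0.00969), and lost its call without active β-catenin 3 (0.0597). Fst, follistatin, which binds activins and some BMPs, was at 8.24, 8.21, 8.23 and 8.48 in wild type and at 9.86, 9.68 and 9.49 with active β-catenin (2.62-fold, 1.39 ± 0.13, adjusted p = 0.000925). Ism1, isthmin, a secreted antagonist of Nodal, was at 7.28, 7.02, 6.38 and 6.73 in wild type and at 9.10, 8.58 and 8.37 with active β-catenin (3.56-fold, adjusted p = 0.0101). The call of Ism1 was lost without active β-catenin 1 (0.0520). Ligand and antagonist thus stood higher in the same 3 arrays, and the second probe sets of Fst and Ism1 differed by 1.22 and 1.61. Inhba, the activin A chain, differed by 0.81 (adjusted p = 0.0838).

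Both osteoblast signals to osteoclasts rose. Tnfrsf11b, osteoprotegerin, was at 7.66, 8.11, 8.41 and 8.70 in wild type and at 10.40, 9.95 and 9.47 with active β-catenin (3.29-fold, 1.72 ± 0.30, adjusted p = 0.0234). Tnfsf11, RANKL, was at 10.04, 10.04, 9.12 and 9.01 in wild type and at 11.37, 10.63 and 10.81 with active β-catenin (2.61-fold, 1.38 ± 0.27, adjusted p = 0.0452). The wild-type pairs lay in opposite order for these 2 genes. Tnfrsf11b rose 4.16-fold over wild type 1 and 2 and 2.61-fold over wild type 3 and 4, while Tnfsf11 rose 1.86-fold and 3.66-fold. Tnfrsf11b lost its call without wild type 1, 2 or 3 or active β-catenin 1 or 2 (highest adjusted p 0.106) and Tnfsf11 without any 1 of the 7 arrays (0.163).

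The remaining called members rose less. Fgf13, an FGF-family protein that stays inside cells, was at 9.53 to 9.73 in wild type and 10.11 to 10.42 with active β-catenin (1.58-fold, adjusted p = 0.0207). Igfbp7, an IGF-binding protein of matrix and vessels, was at 12.66 to 12.75 in wild type and at 13.57, 13.27 and 13.11 with active β-catenin (1.54-fold, 0.0305). Fgf13 lost its call without wild type 1, 2 or 4 or active β-catenin 2 or 3 (highest adjusted p 0.0769), and Igfbp7 without any wild-type array or active β-catenin 1 or 2 (0.100). Of the 9 called members, 5 or 6 kept their call when 1 of the 7 arrays was left out, and Coch, Ccn2 and Fst kept it in every such fit and with the wild-type pairs averaged. Of 10 tested chemokines 0 passed limma's test, with 2 at an unadjusted p under 0.05. Cxcl12, which retains blood precursors in marrow, differed by -0.35 (adjusted p = 0.141).

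Ptgs2, the inducible cyclooxygenase of prostaglandin synthesis, was at 5.27, 5.30, 5.94 and 4.99 in wild type and at 8.30, 7.79 and 7.62 with active β-catenin. The rise of 5.77-fold (2.53 ± 0.42, adjusted p = 0.0207) started from signals under the table's median, and its call survived only the removal of wild type 3 (highest adjusted p 0.106). It was the only called gene of 15 tested in prostaglandin synthesis and reception. Ptgs2 needed arrays with active β-catenin to pass the filter, so its call supports nothing about that group. Pla2g4a, the phospholipase that releases its substrate, differed by 0.42 (adjusted p = 0.0893).

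Car12 and Kcnk2 were the called ion transport genes. Of 158 tested members, 2 rose (1.27%, against 0.599% of all genes) and 0 fell, and the median log2 difference was -0.02. Car12 passed the filter only through the arrays with active β-catenin. The count therefore rests on Kcnk2 alone, and the share is no result about ion transport genes. Car12, which interconverts carbon dioxide and bicarbonate outside the cell, was at 6.88, 6.17, 6.46 and 6.32 in wild type and at 9.48, 9.12 and 9.45 with active β-catenin. Its rise of 7.43-fold (2.89 ± 0.23, adjusted p = 0.000441) was nearly the same against each wild-type pair, 7.09-fold and 7.78-fold, although the wild-type signals were low. No other carbonic anhydrase of the 6 tested passed, and Car2, known from osteoclasts and red cells, differed by -0.59 (adjusted p = 0.594). Kcnk2, a background potassium channel that opens on membrane stretch, was at 7.86, 7.72, 7.56 and 7.5 in wild type and at 9.19, 8.42 and 8.55 with active β-catenin (2.09-fold, 1.06 ± 0.19, adjusted p = 0.0302). It lost its call without any wild-type array or active β-catenin 1 or 3 (highest adjusted p 0.0968).

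The subunits of the vacuolar proton pump, which acidifies lysosomes and the space under osteoclasts, all had negative differences, 18 of 18, and 0 passed limma's test, with 2 at an unadjusted p under 0.05. Their median was -0.32 against wild type 1 and 2 and 0.03 against wild type 3 and 4. Atp6v1a, for example, had signals of 12.44 and 12.55 in the first wild-type pair, 11.84 and 11.81 in the second, and 11.56 to 11.86 with active β-catenin. The shared sign of the pump genes thus came from 1 wild-type pair. Osteoclast markers had the same pattern, 12 of 12 negative with a median of -0.72 against wild type 1 and 2 and 0.01 against wild type 3 and 4. Slc4a1, the chloride-bicarbonate exchanger of red cells, lay lowest of the ion transport genes (-2.07, adjusted p = 0.159), beside the lower erythroid markers described further on.

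Of 228 tested transcription factors in the lists, 7 rose (3.07%, against 0.599% of all genes) and 0 fell, with a median log2 difference of 0.07. These lists do not hold every such factor, and Lef1 is not in them. Sp6 and Irx6, among the 7, passed the filter only through the arrays with active β-catenin. Sp6 was at 5.91, 5.5, 5.78 and 5.79 in wild type and at 8.05, 8.49 and 8.85 with active β-catenin (6.58-fold, 2.72 ± 0.28, adjusted p = 0.00129). The arrays of wild type were alike and low, so the fold is inexact. Klf10, a TGF-β-inducible member of the same zinc finger class, was at 10.86 to 10.97 in wild type and at 11.64, 11.74 and 11.23 with active β-catenin (1.56-fold, adjusted p = 0.0232). The median of the 19 Sp and Klf genes was 0.01.

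Irx6 and Irx3, Iroquois homeobox genes that lie in 1 cluster, both rose. Irx6 was at 6.32, 6.66, 5.88 and 5.90 in wild type and at 8.60, 8.25 and 8.39 with active β-catenin (4.67-fold, 2.22 ± 0.27, adjusted p = 0.00340). Irx3 was at 11.67, 11.64, 11.63 and 11.45 in wild type and at 12.17, 12.03 and 12.39 with active β-catenin (1.52-fold, 0.60 ± 0.11, adjusted p = 0.0302). Irx5, which lies between them, was at 11.22 to 11.55 in wild type and at 11.72 to 11.92 with active β-catenin, without overlap, and its difference of 0.44 did not pass (adjusted p = 0.0761). The other tested genes of this homeobox list, 27 of 29, were not called.

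Nr4a2, an orphan nuclear receptor of the immediate early class, was at 9.44, 9.48, 9.33 and 9.40 in wild type and at 10.80, 10.64 and 10.51 with active β-catenin (2.36-fold, 1.24 ± 0.14, adjusted p = 0.00259). The 3 further probe sets of Nr4a2 lay 0.77 to 1.18 higher, and its relative Nr4a1 differed by 0.46 (adjusted p = 0.253). Hey1, a repressor switched on by Notch, was at 9.17, 9.19, 8.69 and 8.60 in wild type and at 10.63, 10.17 and 10.53 with active β-catenin (2.89-fold, 1.53 ± 0.24, adjusted p = 0.0181). It was the only called gene of 21 tested in the Notch pathway. Epas1, a hypoxia-inducible factor, was at 11.68 to 11.79 in wild type and at 12.84, 12.21 and 12.36 with active β-catenin (1.65-fold, 0.0263).

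The calls of Sp6, Irx6 and Nr4a2 held whichever of the 7 arrays was left out, and that of Sp6 also with the wild-type pairs averaged. Hey1 lost its call without wild type 3 or 4 or active β-catenin 1 or 3 (highest adjusted p 0.0826), Epas1 without any wild-type array or active β-catenin 3 (0.0855), Klf10 without any wild-type array or active β-catenin 1 or 2 (0.101), and Irx3 without any wild-type array or active β-catenin 1 or 3 (0.0990). Of the 29 tested genes of the AP-1, Egr, Cebp, Atf and Nfat families 0 passed limma's test, and 0 had an unadjusted p under 0.05.

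**Figure D4:**
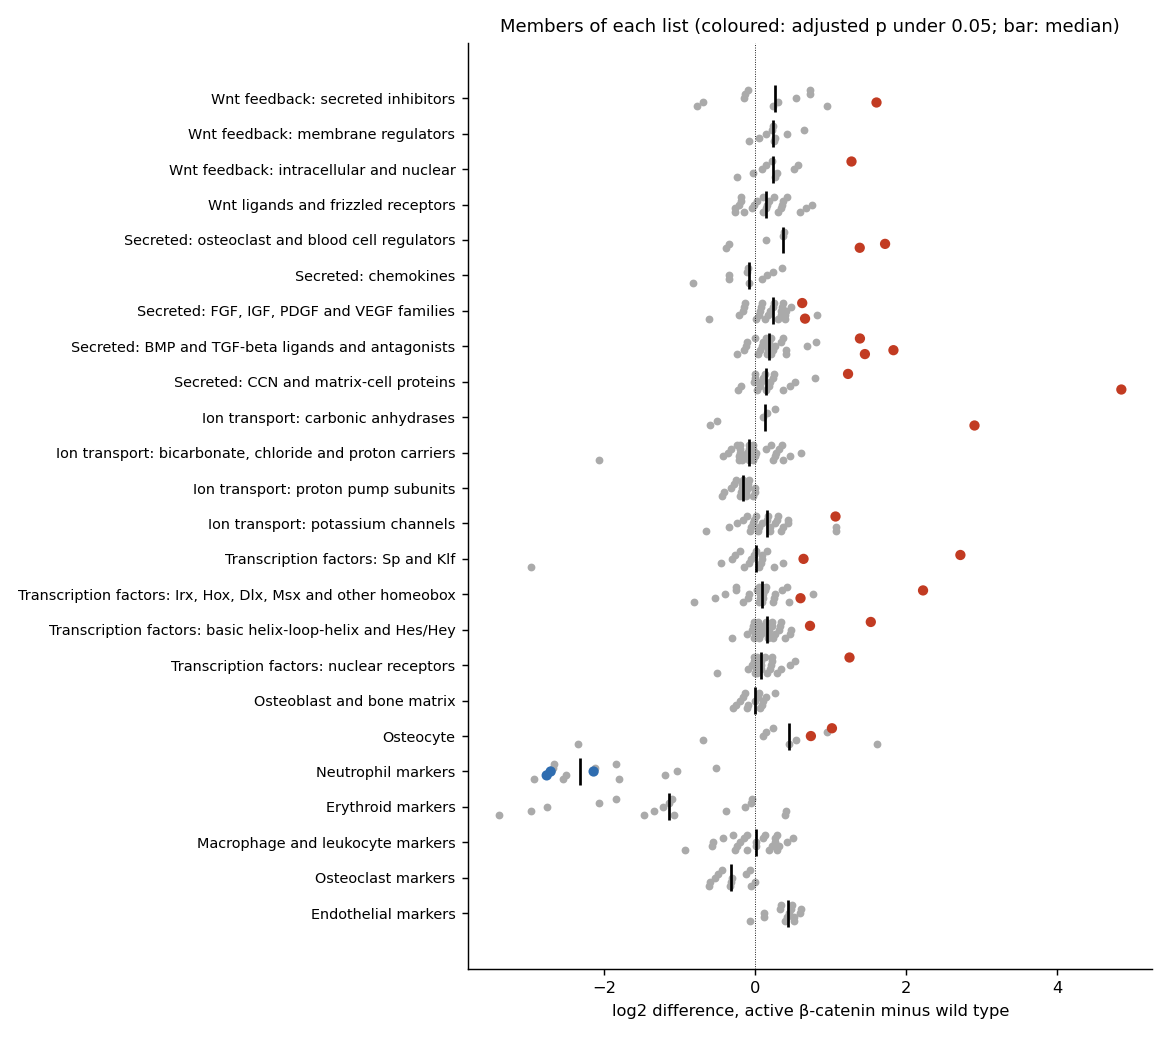
Log2 difference, active β-catenin minus wild type, of each tested gene in the lists drawn, with called genes in red (higher) or blue (lower) and the median of the list as a bar. The called genes stand to the right in the Wnt feedback, secreted, ion transport, transcription factor and osteocyte lists, and 3 called neutrophil markers stand to the left.

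Genes of mature osteoblasts did not pass the test. Of 15 tested genes of osteoblasts and bone matrix 0 were called by limma, with 1 at an unadjusted p under 0.05 and a median of -0.003. Bglap, Runx2 and Phospho1 were not analysed here, since none was matched to a probe set of 1 gene. Of 11 tested osteocyte genes 2 rose, against 0.599% of all genes. Pdpn, podoplanin, a membrane protein of young osteocytes, was at 11.67, 11.70, 12.01 and 11.61 in wild type and at 12.74, 12.74 and 12.81 with active β-catenin (2.02-fold, 1.02 ± 0.09, adjusted p = 0.000712). Ackr3, a scavenging receptor for Cxcl12, was at 11.57 to 11.75 in wild type and at 12.64, 12.26 and 12.23 with active β-catenin (1.67-fold, 0.74 ± 0.10, adjusted p = 0.00694).

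Both of these calls held whichever array was left out. Phex, a peptidase of phosphate control, differed by 0.54 (adjusted p = 0.0889). Mepe, a phosphate-regulating matrix protein, was at 8.16 to 8.71 in wild type and at 7.96, 4.15 and 6.37 with active β-catenin, and its difference of -2.35 ± 0.65 did not pass (adjusted p = 0.152). Active β-catenin 2 gave most of that difference.

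Cdkn1a and Rb1, which restrain the cell cycle, rose, and some genes of DNA replication fell. Cdkn1a, the cyclin-dependent kinase inhibitor p21, was at 11.64, 11.71, 11.81 and 11.74 in wild type and at 12.69, 12.54 and 12.72 with active β-catenin (1.90-fold, 0.93 ± 0.07, adjusted p = 0.000441). Rb1, the retinoblastoma protein gene, was at 9.97 to 10.02 in wild type and at 10.40 to 10.47 with active β-catenin (1.35-fold, 0.44 ± 0.08, adjusted p = 0.0235). These were the 2 called genes of 16 tested inhibitors (0.599% of all genes rose), whose median was -0.03. Cdkn1a held in every fit with 1 array left out, and Rb1 in none of them (highest adjusted p 0.0860).

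Skp2, the ubiquitin ligase subunit that removes cell cycle inhibitors, was at 10.64 to 10.72 in wild type and at 10.11, 10.02 and 10.10 with active β-catenin. It fell by 0.60 on the log2 scale (1.51-fold, adjusted p = 0.0135), and all 5 of its other kept probe sets had differences between -0.62 and -0.39. The call was lost without wild type 1 or 4 or active β-catenin 3 (highest adjusted p 0.0522). Chaf1b, a chromatin assembly factor of replication, fell 1.49-fold (adjusted p = 0.0394), Lmnb1, a lamin of the nuclear envelope, 1.56-fold (0.0302), and Pole3, a subunit of a replicative polymerase, 1.40-fold (0.0455). Of the other probe sets of Pole3, 1 differed by 0.39 and 1 by -0.09. Chaf1b, Lmnb1 and Pole3 lost their calls in at least 6 of the 7 fits with 1 array left out (highest adjusted p 0.142). Of 28 tested cell cycle genes 0 were called by limma, although all 28 had negative differences and 12 had an unadjusted p under 0.05 (12.1% of all genes). Their mean signal was 10.15 to 10.24 in wild type and 9.56, 10.01 and 10.09 with active β-catenin, with active β-catenin 1 lowest. The median was -0.35 here, beside -0.27 in the FoxO1-deleted arrays, which share the wild-type arrays.

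Other genes that rose lay outside the lists and are ordered here after their values were seen. Prelp, a leucine-rich matrix protein, was at 9.29 to 9.57 in wild type and at 10.37, 10.28 and 10.28 with active β-catenin (1.85-fold, 0.89 ± 0.09, adjusted p = 0.00129). Ptx3, a secreted pentraxin, was at 10.83 to 10.94 and at 11.46, 11.44 and 11.48 (1.48-fold, 0.00317). Among secreted and matrix genes outside the lists, Sema3e, a guidance ligand that acts on vessels, rose 3.05-fold (adjusted p = 0.0181), A2m, a protease inhibitor, 2.88-fold (0.0384), Agt, angiotensinogen, 2.02-fold (0.0185), Col4a1, a basement membrane collagen, 1.55-fold (0.0137), and Htra1, a secreted protease, 1.47-fold (0.0308).

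Nt5e, the ectonucleotidase CD73 that makes adenosine, was at 9.77 to 9.99 in wild type and at 10.83, 10.76 and 10.91 with active β-catenin (1.95-fold, 0.97 ± 0.12, adjusted p = 0.00437). Enpp3, an ectonucleotide pyrophosphatase, was at 8.63 to 8.83 and at 10.43, 9.77 and 9.80 (2.40-fold, 0.00400). Lpar3, a receptor for lysophosphatidic acid, rose 1.95-fold (0.0207), and Rgs4, which shortens G-protein signals, 2.28-fold (0.0384). Bambi, a decoy receptor of the TGF-β family, was at 10.96 to 11.07 and at 11.87, 11.54 and 11.86 (1.67-fold, 0.00576), Hhip, which binds Hedgehog ligands, rose 1.88-fold (0.0232), and Skil, a repressor of Smad proteins, 1.45-fold (0.0478).

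Among enzymes, Cyp1b1, a cytochrome P450, was at 8.17 to 8.48 in wild type and at 10.62, 9.91 and 9.64 with active β-catenin (3.33-fold, 1.73 ± 0.23, adjusted p = 0.00633). Abca8a, a lipid transporter of the ABC class, was at 9.23 to 9.46 and at 11.12, 10.61 and 10.63 (2.72-fold, 0.00239). Aldh1a3, which makes retinoic acid, rose 2.20-fold (0.0151), and a second probe set differed by 1.53. Gchfr, a regulator of tetrahydrobiopterin synthesis, was at 6.45 to 7.06 and at 8.89, 8.01 and 8.74 (3.36-fold, 0.0235). Of the genes of the last 3 paragraphs, Prelp, Ptx3, Nt5e, Enpp3, Bambi, Cyp1b1 and Abca8a held with any 1 array left out, and only Prelp also with the wild-type pairs averaged. The others were lost in at least 3 of these 7 fits, with a highest adjusted p of 0.163. Prelp lost its call when the kept probe sets of each gene were averaged, and its second probe set differed by 0.56.

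The falls outside the blood cell genes were smaller, and 1 of them, Ramp1, held with any array left out. Ramp1, the co-receptor for calcitonin gene-related peptide, was at 11.26, 11.31, 11.27 and 11.28 in wild type and at 10.38, 10.79 and 10.65 with active β-catenin (fell by 0.67, 1.60-fold, adjusted p = 0.00652). Tent5a, a poly(A) polymerase needed for bone collagen transcripts, was at 12.41 to 12.56 and at 11.89, 11.53 and 11.79 (fell by 0.76, 1.70-fold, 0.0181). Pde1a, a cyclic nucleotide phosphodiesterase, was at 8.17 to 8.55 in wild type and at 7.46, 6.17 and 7.15 with active β-catenin (fell by 1.42, 0.0316), with active β-catenin 2 lowest. Rtel1, a DNA helicase, was at 9.30 to 9.90 and at 8.46, 7.86 and 7.57 (fell by 1.63, 0.0276). Its other kept probe sets gave differences of 0.20 and -0.01.

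Timp1, an inhibitor of matrix metalloproteinases, was at 12.60 to 12.74 in wild type and at 12.19, 12.15 and 12.37 with active β-catenin (1.34-fold lower, adjusted p = 0.0232). Col22a1, a collagen of tissue junctions, was 1.43-fold lower (0.0384), and both of its other kept probe sets had negative differences of -0.38 and -0.65. Gsn, the actin-severing gelsolin, was 1.40-fold lower (0.0287), and 1 of its 4 other kept probe sets differed by 0.87. Psat1, an enzyme of serine synthesis, was 1.46-fold lower (0.0276). Each fall of this and the preceding paragraph except that of Ramp1 lost its call in at least 5 of the 7 fits with 1 array left out, with a highest adjusted p of 0.131.

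Lcn2, Olfm4 and Ifitm6 fell, and the other neutrophil markers had lower means with active β-catenin without passing the test. Of 14 tested markers all 14 had negative differences, 3 fell (0.185% of all genes fell), and 11 were lower without overlap, against 6.76% of all genes. Of 25 annotated markers 11 were not tested. Lcn2, Olfm4 and Ifitm6 needed wild-type arrays to pass the filter, so the count of 3 supports nothing about the group. Whether the other tested markers needed them too was not counted. The median was -2.33, or -2.89 against wild type 1 and 2 and -1.85 against wild type 3 and 4. Lcn2, the iron-scavenging lipocalin of neutrophil granules, was at 9.94, 9.77, 9.15 and 9.11 in wild type and at 6.91, 6.69 and 6.74 with active β-catenin (6.56-fold lower, adjusted p = 0.0207). Olfm4, a granule protein, was at 9.60, 9.57, 9.03 and 9.10 and at 6.34, 6.49 and 6.85 (6.80-fold lower, 0.0397). Ifitm6, a membrane protein of myeloid cells, was at 8.77, 8.58, 8.05 and 8.0 and at 5.79, 6.66 and 6.17 (4.42-fold lower, 0.0192). With active β-catenin these signals lay under the table's median, so the folds are inexact.

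The most abundant marker, S100a8, a calcium-binding protein of neutrophils, was at 13.70, 13.78, 12.63 and 12.67 in wild type and at 10.68, 10.80 and 10.45 with active β-catenin. Its difference of -2.55 ± 0.56 did not pass (adjusted p = 0.0702). Summed over the 14 markers, linear signal was 14874 to 31695 in wild type, 3225 to 4334 with active β-catenin and 1698 to 11123 with FoxO1 deleted. The FoxO1-deleted arrays were thus also below every wild-type array, although they come from another genotype and share these controls. Between the altered genotypes Lcn2, Olfm4 and Ifitm6 did not pass limma's test (adjusted p = 0.869, 0.874 and 0.423), and 76 of all genes did (0.669%), 66 higher with active β-catenin (0.581%) and 10 lower (0.0881%). Lcn2 and Olfm4 lost their calls in 6 and 7 of the 7 fits with 1 array left out (highest adjusted p 0.0779 and 0.146), and Ifitm6 without wild type 1 or 2 or active β-catenin 1 or 3 (0.0826). In whole samples such as these, fewer cells of a type and less RNA per cell cannot be told apart.

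Erythroid genes had lower signal with active β-catenin, but none was called. Of 17 tested markers 15 had negative differences, 0 passed limma's test and 10 had an unadjusted p under 0.05. The median was -1.15, or -1.69 against wild type 1 and 2 and -0.62 against wild type 3 and 4, and 10 markers were lower without overlap, against 6.76% of all genes. Hemgn, a nuclear protein of blood precursors, was at 9.72, 9.52, 8.16 and 7.83 in wild type and at 4.76, 6.54 and 4.94 with active β-catenin (adjusted p = 0.123). Rhd, a red cell membrane protein, was at 7.88 to 8.41 and at 7.07, 6.43 and 7.36 (-1.23 ± 0.28, 0.0779). Summed signal over the 17 markers was 7352 to 12564 in wild type, 5606 to 6065 with active β-catenin and 5117 to 8776 with FoxO1 deleted.

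Alad, an enzyme of heme synthesis present in all cells and abundant in red cell precursors, was the 1 called gene of 7 in that pathway. It was at 10.43, 10.48, 10.15 and 10.27 in wild type and at 9.62, 9.78 and 9.79 with active β-catenin (fell by 0.60, 1.52-fold, adjusted p = 0.0207), and at 9.46, 9.33 and 9.45 with FoxO1 deleted. Its call survived only the removal of wild type 3 (highest adjusted p 0.0854). With FoxO1 deleted Alad differed from wild type by -0.92 (limma, adjusted p = 0.0087). Mean log2 signal of the erythroid markers was 8.03 to 8.80 in wild type and 7.05 to 7.38 with active β-catenin. In FoxO1-deleted 2 it was 8.35, inside the wild-type range, while Alad was at 9.33 in that array. The part of erythroid content in the result was not tested.

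**Figure D5:**
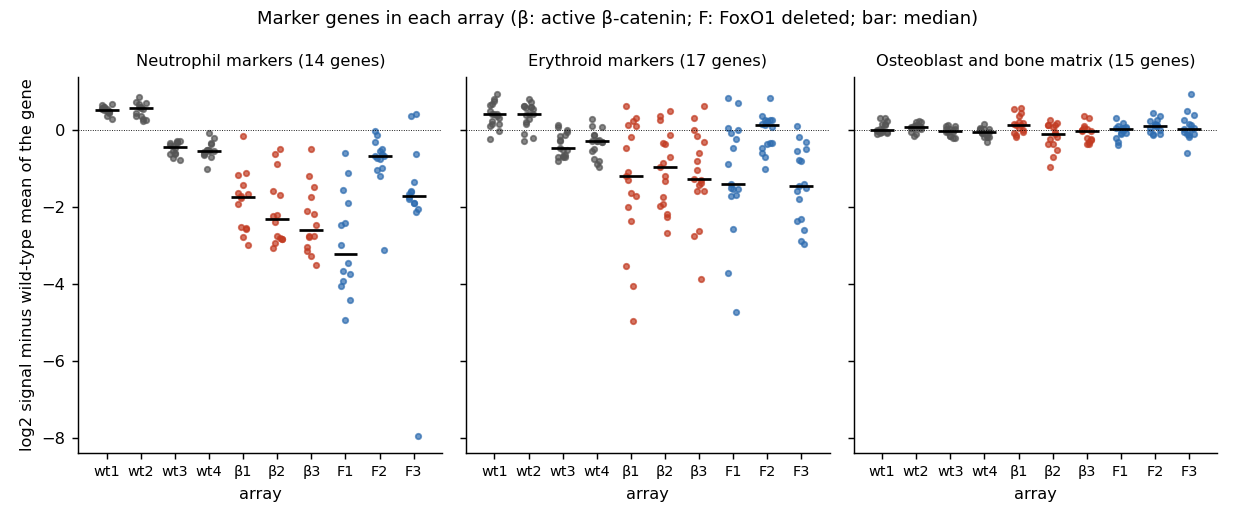
Log2 signal of each tested marker minus its wild-type mean in each of the 10 arrays, for neutrophil (14), erythroid (17) and osteoblast (15) genes, with the median as a bar. Neutrophil medians are above 0 in wild type 1 and 2, below 0 in wild type 3 and 4, and lower still in the arrays with active β-catenin, while osteoblast medians stay near 0 in all arrays.

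Other blood cell lists were small, and 0 of their members passed limma's test. All 3 tested B-cell markers had negative differences (median -0.71, 1 at an unadjusted p under 0.05), as did all 5 mast cell and basophil markers (median -0.52, 0) and 4 of 5 megakaryocyte markers (median -0.21, 0). Of 24 tested macrophage and leukocyte markers 0 passed limma's test, with 5 at an unadjusted p under 0.05 and a median of 0.01. Their summed signal of 34189 to 38407 with active β-catenin lay inside the wild-type range of 32214 to 41533. Endothelial markers had positive differences in 13 of 14, with 10 higher without overlap (7.27% of all genes), 0 called and 10 at an unadjusted p under 0.05 (12.1% of all genes). Their summed signal was 11960 to 12203 in wild type and 14216 to 17563 with active β-catenin, and the median was 0.43 against wild type 1 and 2 and 0.37 against wild type 3 and 4. Kdr, a VEGF receptor, was at 9.63 to 9.85 in wild type and at 10.31, 10.03 and 10.14 with active β-catenin (0.42 ± 0.10, adjusted p = 0.0824). Igfbp7, Col4a1 and Sema3e, which vessels also express or answer to, rose in the same arrays, and the part of endothelial content in them was not tested.

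Chondrocyte markers were positive in 14 of 16, with a median of 0.60, 0 called and 5 at an unadjusted p under 0.05. Sox9, the cartilage transcription factor, was at 7.35 to 7.90 in wild type and at 8.29 to 8.74 with active β-catenin (0.87 ± 0.20, adjusted p = 0.0838). Skeletal muscle markers had a median of 0.73 against wild type 1 and 2 and -0.33 against wild type 3 and 4, so their sign depended on the pair. Of 16 fibroblast and smooth muscle markers 2 rose, against 0.599% of all genes. They were Thy1, a surface protein of mesenchymal cells, 1.88-fold (adjusted p = 0.0368) and S100a4 1.34-fold (0.0384), and both calls were lost in at least 6 of the 7 fits with 1 array left out (highest adjusted p 0.145). None of the 9 T and NK cell markers in the annotation passed the filter on low signals.

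The leading rises were set beside the FoxO1-deleted arrays, which tests whether they differ between the altered genotypes. Coch was at 4.49, 5.64 and 6.43 with FoxO1 deleted, Car12 at 6.84, 6.83 and 6.20, and Sp6 at 5.69, 6.0 and 6.38, all near wild type. Active β-catenin stood higher than FoxO1 deletion for Notum (limma, adjusted p = 0.00210), Ccn2 (0.00101), Fst (0.00101), Pdpn (0.00191) and Cdkn1a (0.00101). Signal was also higher for Coch (0.00101), Car12 (0.00101) and Sp6 (0.00364). Coch, Car12 and Sp6 passed the filter only through the arrays with active β-catenin. They had to be higher there than with FoxO1 deleted to be tested, so this test cannot decide the question for them. For Ptgs2 (0.282), Tnfrsf11b (0.103), Bmp2 (0.0751), A2m (0.650), Thy1 (0.423), Epas1 (0.336), Col4a1 (0.506) and Igfbp7 (0.508) the difference between the altered genotypes did not pass. Ptgs2, for example, was at 6.44, 7.21 and 5.43 with FoxO1 deleted, and Bmp2 at 10.27, 10.64 and 10.98. Rb1 and Fgf13 differed by more between the altered genotypes than from wild type. Rb1 was at 9.69, 9.69 and 9.54 with FoxO1 deleted, and Fgf13 at 9.31, 8.97 and 9.10, both below every wild-type array (adjusted p = 0.00137 for each against active β-catenin).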

How the data were processed

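Total RNA (500 ng per labelling, per the labels) was biotin-labelled and hybridised to Affymetrix arrays. The authors deposited log2 signal, made with MAS5, per the submitters' processing notes, which give no version. The base and the scaling were read from the values, since the mean linear signal after trimming 2% at each end was 500 in every array. No step between arrays beyond that scaling is given in the sources used here. Low signals were not floored, so differences at low signal are inexact. The number of arrays limits the precision.

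Of 45101 probe sets, 34958 had 1 gene in the platform annotation, 932 several and 9211 none. RefSeq's table for GRCm38.p6 held the gene IDs of 99.4% of those with 1 gene. A probe set was kept if its third-highest of 10 values exceeded the table's median of 7.15, which left 20127 with 1 gene. The kept probe set with the highest mean stood for each of 11357 genes.

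Differences were fitted with limma 3.58.1 in R 4.3.3 (lmFit, eBayes with trend, two-sided) on all 10 arrays with 1 mean per genotype, 7 residual degrees of freedom, and Benjamini-Hochberg adjustment over all genes, at 0.05. The method was tested on simulated data with independent noise in each array. The simulation had no similar wild-type pairs, so it does not show how the test behaves with them. Values per genotype are mean ± SD, differences are ± SE, and a fold is the log2 difference taken back to the linear scale. Lists are described by counts and medians, without a test. Summed levels add linear signal over a list's genes.

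The samples described, the members and the lists were chosen with earlier results of these data known. Genes named were those called, the Wnt feedback members, and up to 3 or 4 members of a list, plus Ctnnb1, Axin2, Col1a1 and Xist. Exceptions, chosen after their values were seen, are Car2, Irx5, Inhba, Nr4a1, Pla2g4a, Phex, Mepe and S100a8. Alternatives were other filters, scaling, probe set rules, arrays in the fit, a replicate block, averaged wild-type pairs, Xist, added signal, another variance prior and each array left out.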

Additional observations from a re-analysis of the deposited data

Results flagged for a closer look

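Of 92 genes checked in the 4 wild-type arrays, 2 had an array that stood apart from the other 3, by a gap that made up more of the range than Dixon's 95% critical value. Chance puts about 1 in 20 groups there. Axin2 was at 8.48 in wild type 2, against 8.79 to 8.83 in the others (gap 0.886 of the range). Fst was at 8.48 in wild type 4, against 8.21 to 8.24 in the others (gap 0.889 of the range).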

How the results depend on the processing

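Against 89 genes changed, 68 higher and 21 lower, fitting only the 7 arrays gave 141 changed with 46 lower, and 86 of the 89 were among them. With the wild-type pairs averaged limma gave 9 changed, 9 higher and 0 lower (705 genes at an unadjusted p under 0.05). In the 6 arrays with low Xist alone 175 changed, 105 higher and 70 lower, of which 49 were among the 89. A term for Xist gave 35 changed, 33 higher and 2 lower, and 32 were among the 89. Without the trend in eBayes 9 were lower. Genes different between active β-catenin and FoxO1 deletion numbered 76, and 49, 12 and 18 with averaged pairs, low Xist alone and the Xist term. With 1 array left out, 31 to 63 changed, 30 to 55 were higher, 1 to 9 lower and 30 to 62 differed between the altered genotypes. The other filters, quantile scaling, mean of probe sets and added signal kept the count within 1.5 times, at 73 to 101. No called gene changed sign in any setting run.

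The replicate number as a block gave 15 changed, 15 higher and 0 lower in limma (1056 genes at an unadjusted p under 0.05), all 15 among the 89, and 22 different between the altered genotypes. Deviations of same-numbered arrays correlated at 0.29, -0.287 and 0.0931, with no common sign. With so few arrays these values cannot decide whether the numbers pair the samples, and the labels do not say. The causes of these changes were not tested. Signal under 7.15 limits the size of differences.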

Other observations

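Some large differences outside the lists did not pass the test and are given as values, chosen after they were seen. Wfdc18, a secreted whey-acidic-protein family member, was at 5.61, 6.08, 3.64 and 2.09 in wild type and at 9.35, 8.83 and 8.79 with active β-catenin (log2 difference 4.63 ± 0.96, adjusted p = 0.0585). Syndig1 was at 4.34 to 6.24 in wild type and at 8.17 to 8.38 with active β-catenin (3.04, adjusted p = 0.0803). Adamtsl2, a matrix protein that binds latent TGF-β binding proteins, was at 5.17 to 6.77 in wild type and at 7.99 to 8.81 with active β-catenin (2.25, adjusted p = 0.0516). For each of these genes all arrays with active β-catenin lay above all wild-type arrays. Their wild-type signals all lay under the filter's median of 7.15, so only arrays of the altered genotypes let them be tested. They were also picked by their values, so that lack of overlap is no support.

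Some called genes lay close together in the genome. In the RefSeq gene order of GRCm38.p6, 6 pairs of called genes had at most 2 genes between them, and in each pair both genes moved the same way. How many such pairs any 89 of the tested genes would give was not worked out, so the count shows no clustering. Most calls were rises (68 of 89), so a shared direction says little. These pairs were Ccn2 and Enpp3, Irx3 and Irx6, Cyp1b1 and Hnrnpll, Pgbd5 and Agt, and Dnajc9 and Anxa7 among the rises, and Alad and Pole3, which are adjacent, among the falls. Of the tested genes between them, Irx5 differed by 0.44 (limma, adjusted p = 0.0761), Cog2 by -0.01 (0.979) and Mrps16 by 0.08 (0.866).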
